A study of Mus musculus with 11 samples.

Results

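Genes that mark multinucleated giant cells, osteoclast-like cells and lipid-laden macrophages were followed in the ageing mouse ovary. They were Gpnmb, Trem2, Acp5, Ctsk, Dcstamp, Ocstamp, Atp6v0d2, Spp1, Mmp12 and Lgals3, taken by their symbols from the deposited table. All 10 were found once each among its 54232 genes. Whole ovaries of WT mice were measured by bulk RNA sequencing at 2, 18 and 24 months of age, and the series text calls these young, old and post-reproductive. The 2 month group held 4 samples, the 18 month group 4 libraries counted as 3 samples, and the 24 month group 3 samples. All groups were untreated as far as the labels say, and strain is not given in the sources used here. Library names carried 8 weeks for the 2 month group and 22 months for the 24 month group, and the groups are called here by their sample titles. Nothing in the labels says that samples came from separate animals, so each p-value rests on the spread among the samples alone.

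Macrophages can fuse into giant cells when they meet material that they cannot clear, and bone-resorbing osteoclasts arise by the same kind of fusion from precursors of the same lineage. Fusion needs surface proteins such as DC-STAMP and OC-STAMP, and the fused cells secrete acid and proteases through a vacuolar proton pump, tartrate-resistant acid phosphatase and cathepsin K. Lipid-laden or foamy macrophages carry TREM2, a lipid-sensing receptor, and GPNMB, a lysosomal glycoprotein, and multinucleated macrophages filled with pigment and lipid are known from the stroma of old mouse ovaries.

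Depth and tissue identity set the limits of the values below. Total counts were 26061630 to 33407509 in 9 libraries, but 5231724 and 8892915 in 18 month replicates 3 and 4. The counts of those 2 libraries differed by about sampling noise, with a chi-square of 1.10 per gene against 28.7 for the next closest of 15 pairs, so they were summed and counted as 1 sample, called the summed 18 month sample. Markers of oocytes, granulosa, theca and luteal cells (9 genes) were detected at all ages, with a summed level in CPM (read counts relative to library size, with TMM scaling) of 9918 to 22893 for the 2 month samples, 7391 to 11488 for 18 months and 2719 to 5323 for 24 months. In bulk tissue, fewer cells of a type and less RNA per cell cannot be told apart.

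Of the 10 genes, 9 had enough counts to be tested, and Ocstamp was filtered out for low counts. Gpnmb, Atp6v0d2 and Mmp12 rose from 2 to 18 months, which is 3 of 9 against 6.04% of all 20331 tested genes, and 0 of 9 fell against 5.51%. From 2 to 24 months Gpnmb, Trem2, Dcstamp, Atp6v0d2 and Mmp12 rose, 5 of 9 against 19.2% of all tested genes, and Spp1 fell, 1 of 9 against 15.8%. Dcstamp is among these 9 only because its older samples passed the count filter, so its place in the count is partly set by that filter. Between 18 and 24 months 0 of 9 passed edgeR's quasi-likelihood test at a Benjamini-Hochberg adjusted p of 0.05, against 0.00492% of all genes. In that last comparison 1 of 9, Trem2, had an unadjusted p under 0.05, against 5.86% of all genes in the same direction, and DESeq2 and limma-voom also called 0. The median log2 fold change of the 9 genes was 1.03, 1.75 and 0.17 in these comparisons, beside 0.01, 0.03 and 0.03 for all tested genes. Both comparisons with 2 months share the same 2 month samples. Leaving out 1 sample at a time, 1 to 3 of the genes were called at 18 months and 4 to 7 at 24 months. The count at 18 months was 1 without any single 2 month sample or without the summed 18 month sample.

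**Figure D1:**
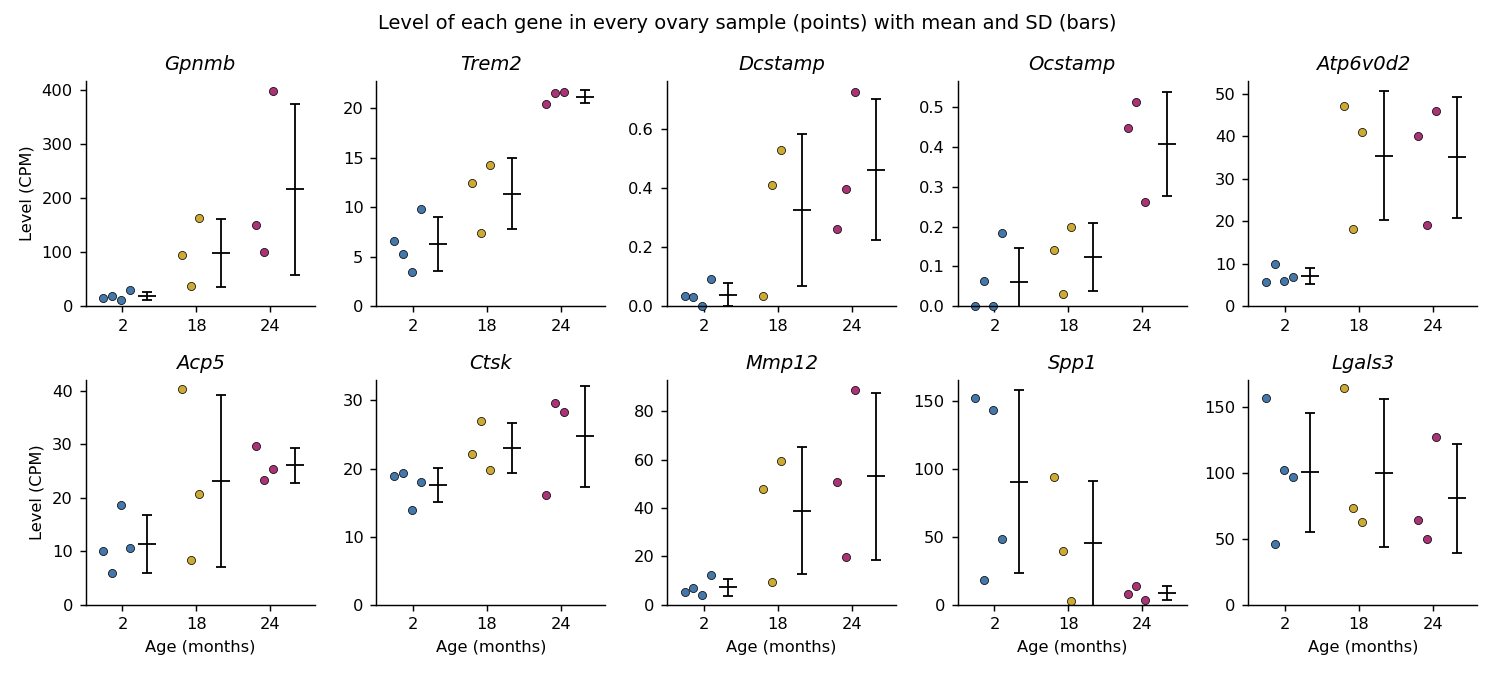
Level of each of the 10 genes in CPM (y axis, from 0, own scale per gene) in every ovary sample (points) against age in months, with the mean and SD of each age beside them (SD bars that would pass below 0 end at the axis). Gpnmb, Trem2, Atp6v0d2 and Mmp12 lie higher at 24 than at 2 months in every sample, Spp1 lies lower, and Lgals3 overlaps at all ages.

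Promoter windows from RefSeq (GRCm38.p6), 250 bases before to 50 bases after a start, were found for 7 of the 10 genes, as 11 windows. Dcstamp, Ocstamp and Atp6v0d2 had none. The AP-1-like pattern TGANTCA (N for any base), the E-box CACGTG and the M-box TCATGTG bound by the MITF family were searched on both strands. They were taken because AP-1 and MITF are known regulators of osteoclast genes. With any base at N, TGANTCA is looser than a single binding site sequence. TGANTCA was found for 3 of these 7 genes, Gpnmb, Trem2 and Mmp12. Dcstamp and Atp6v0d2 also rose by 24 months but could not be searched, and a link between a match and a rise was not tested. Of all 27025 symbols with windows 8.97% have a match, and 7.81% of all 32851 windows of this length hold it. The stretches are printed to show where the letters lie, with the matches in capitals, 5′ to 3′ on the gene's strand. The Gpnmb stretch lies at chr6:49036268-49036532 on the plus strand, and its match TGACTCA covers bases 9 to 15 after the start, the start base counted as 1. That RefSeq start, 49036518, lies before the deposited start of the gene, 49036546, and so does the match.
Gpnmb: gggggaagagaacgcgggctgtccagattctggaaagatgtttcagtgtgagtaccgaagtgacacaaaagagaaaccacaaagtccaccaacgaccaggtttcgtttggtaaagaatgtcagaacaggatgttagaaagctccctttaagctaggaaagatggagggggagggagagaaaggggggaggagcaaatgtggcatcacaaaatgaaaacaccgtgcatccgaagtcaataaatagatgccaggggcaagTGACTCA
The Trem2 stretch lies at chr17:48346151-48346400 on the plus strand and ends just before the start, with TGAATCA at bases 9 to 3 before it.
Trem2: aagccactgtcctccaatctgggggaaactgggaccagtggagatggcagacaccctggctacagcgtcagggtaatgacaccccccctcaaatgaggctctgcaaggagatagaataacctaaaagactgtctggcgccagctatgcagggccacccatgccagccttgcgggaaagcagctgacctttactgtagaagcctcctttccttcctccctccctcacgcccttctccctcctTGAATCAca
Another window of Mmp12, chr9:7344147-7344446, covers the gene's deposited start and holds none of the patterns. The Mmp12 stretch printed here lies at chr9:7347124-7347373 on the plus strand, before a start inside the gene's deposited interval. It holds TGAGTCA at bases 44 to 38 before that start, and CACATGA, which is TCATGTG on the other strand, at bases 83 to 77.
Mmp12: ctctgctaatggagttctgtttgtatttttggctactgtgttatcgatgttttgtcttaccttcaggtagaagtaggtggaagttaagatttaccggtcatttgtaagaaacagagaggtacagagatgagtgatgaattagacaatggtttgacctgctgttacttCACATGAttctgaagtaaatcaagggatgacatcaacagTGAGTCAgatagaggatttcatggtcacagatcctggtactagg
One window of Acp5 also holds TCATGTG, a motif found in 3.77% of all windows, and no window of the 7 genes holds CACGTG, found in 7.15%. A match is a description of letters, and binding was not measured.

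Gpnmb (ENSMUSG00000029816) encodes a transmembrane glycoprotein of lysosomes and melanosomes that macrophages make under lysosomal stress. The gene spans chromosome 6 from 49036546 to 49070929 (mm10, plus strand, 13 exon blocks). Its level was 15.9, 19.4, 12.1 and 29.8 CPM in the 2 month samples, 94.6, 37.5 and 164 CPM at 18 months (replicates 1 and 2 and the summed sample), and 150, 101 and 398 CPM at 24 months. Every older sample lay above every 2 month sample, and both older groups were widely spread. Gpnmb rose by 2.35 at 18 months (log2 units, SE 0.574, adjusted p = 0.0323 by edgeR) and by 3.48 at 24 months (SE 0.593, adjusted p = 0.00415). Between 18 and 24 months the difference was 1.14 (SE 0.609, adjusted p = 0.542) and the samples overlapped. The 24 month call was kept whichever sample was left out. The 18 month call was lost on leaving out any single 2 month sample, the first 18 month replicate or the summed one, with adjusted p between 0.0549 and 0.120, and with no count filter (0.0945). Gpnmb is also a pigment cell gene, and the 5 melanocyte markers together summed to 0.622 to 1.07 CPM at 2 months, 0.992 to 1.10 CPM at 18 months and 1.12 to 1.48 CPM at 24 months, with Tyrp1 at 0 in all samples of 18 and 24 months. The part of these cells in the Gpnmb level was not tested.

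Trem2 (ENSMUSG00000023992, chromosome 17, 48346401 to 48354147, plus strand, 5 exon blocks) encodes the lipid and lipoprotein receptor of phagocytes that signals through the adaptor TYROBP. The 2 month samples read 6.58, 5.25, 3.45 and 9.83 CPM, the 18 month samples 12.5, 7.35 and 14.2 CPM, and the 24 month samples 20.4, 21.5 and 21.6 CPM. The 24 month samples lay close together and above every other sample, while the 18 month samples overlapped the 2 month range. Trem2 rose at 24 months by 1.75 (log2 units, SE 0.329, adjusted p = 0.00554 by edgeR), a call kept whichever sample was left out. At 18 months the difference was 0.85 (SE 0.329, adjusted p = 0.119). From 18 to 24 months it was 0.90 (SE 0.354, adjusted p = 0.465), and Trem2 was the only one of the 9 tested genes whose 18 and 24 month samples did not overlap. Of all tested genes, 6.73% lay wholly higher at 24 than at 18 months and 5.36% wholly lower.

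Dcstamp and Ocstamp encode multipass membrane proteins that macrophages and osteoclast precursors need for fusion, and both were rare in these libraries. Dcstamp (ENSMUSG00000022303, chromosome 15, 39745930 to 39760938, plus strand) had 1, 1, 0 and 3 counts in the 2 month samples, 1, 13 and 8 at 18 months, and 7, 14 and 25 at 24 months. All 24 month samples lay above all 2 month samples in CPM, but 18 month replicate 1 was as low as the 2 month samples. Relative to depth, the pooled rate at 24 months was 11.3 times that at 2 months (exact 95% interval 4.52 to 36.5, counting error only), and the rate at 18 months was 6.96 times (2.57 to 23.5). Between 24 and 18 months the ratio was 1.63 (0.960 to 2.84), an interval that includes no difference. The fitted log2 fold change at 24 months, which depends on the prior count, was 3.36 (SE 0.858, edgeR adjusted p = 0.0162), and the call was lost without 24 month replicate 3 (adjusted p = 0.0618). At 18 months it was 2.77 (SE 0.917, adjusted p = 0.0770), and it passed without 18 month replicate 1 (0.0330) and with DESeq2 (0.0496).

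Ocstamp (ENSMUSG00000027670, chromosome 2, 165393760 to 165400405, minus strand) had 0, 2, 0 and 6 counts at 2 months, 4, 1 and 3 at 18 months, and 12, 18 and 9 at 24 months. The 24 month samples, at 0.262 to 0.512 CPM, lay above all others, which reached at most 0.199 CPM. Its pooled rate at 24 months was 6.01 times that at 2 months (exact 95% interval 2.77 to 14.9, counting error only) and 3.80 times that at 18 months (1.75 to 9.41). The ratio of 18 to 2 months was 1.58, with an interval of 0.517 to 4.83. With no count filter, edgeR gave adjusted p = 0.0480 for 24 against 2 months and 0.725 for 24 against 18 months.

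Atp6v0d2 (ENSMUSG00000028238, chromosome 4, 19876841 to 19922605, minus strand, 9 exon blocks) encodes the d2 subunit of the vacuolar proton pump, a form enriched in osteoclasts and needed for precursor fusion. It read 5.79, 9.98, 5.85 and 6.85 CPM at 2 months, 47.3, 18.2 and 41.0 CPM at 18 months, and 40.2, 19.0 and 46.1 CPM at 24 months. Every older sample lay above every 2 month sample, and the 18 and 24 month groups covered nearly the same range. The rise was 2.31 at 18 months (log2 units, SE 0.386, adjusted p = 0.0134 by edgeR) and 2.30 at 24 months (SE 0.386, adjusted p = 0.00393). Both calls were kept whichever sample was left out. The difference from 18 to 24 months was -0.02 (adjusted p = 0.992).

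The sister subunit Atp6v0d1, found in pumps of most cells, did the opposite at 24 months. It averaged 100.4 ± 14.2 CPM (SD, n = 4) at 2 months, 85.7 ± 9.36 CPM (n = 3) at 18 months and 76.2 ± 6.67 CPM (n = 3) at 24 months, and fell by 0.40 from 2 to 24 months (log2 units, SE 0.129, adjusted p = 0.0378 by edgeR). That call was lost in 5 of 10 fits without 1 sample (2 month replicates 1, 3 and 4 and 24 month replicates 2 and 3, adjusted p up to 0.116). Per kilobase of exon, d2 made up 4.61% ± 1.80 (SD, n = 4) of the 2 forms at 2 months, 20.9% ± 6.86 (n = 3) at 18 months and 22.9% ± 8.25 (n = 3) at 24 months. The lowest older sample, at 13.0%, lay above the highest 2 month sample, at 7.19%. In an exact two-sided permutation test of each older age against 2 months p was 0.0286, the smallest that 4 against 3 samples can give. Adjusted over 6 ratio tests it was 0.0857 for both ages, which did not pass the threshold. The share at 24 months minus that at 18 months was 2.06 percentage points (exact permutation p = 0.7).

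**Figure D2:**
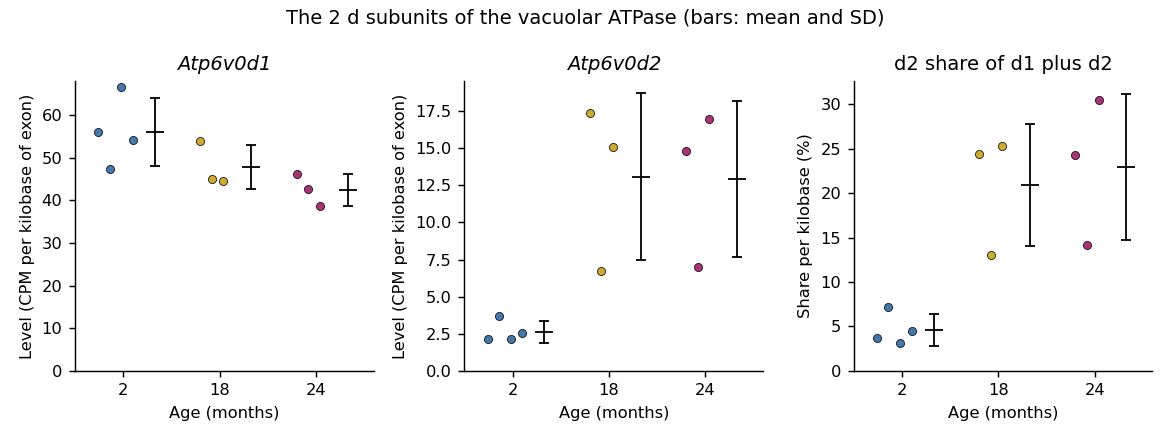
Levels of Atp6v0d1 and Atp6v0d2 in CPM per kilobase of exon, and the share of d2 in their sum in %, in every sample (points) against age in months, with mean and SD (bars). The d2 share averaged 4.61% at 2 months and 20.9% and 22.9% at 18 and 24 months, with replicate 2 lowest at both older ages.

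The acid phosphatase and the cysteine protease of the resorbing cell had smaller differences, which did not pass the test. Acp5 (ENSMUSG00000001348, chromosome 9, 22126727 to 22135711, minus strand) encodes tartrate-resistant acid phosphatase, the classic osteoclast stain. It measured 10.03, 5.97, 18.8 and 10.7 CPM at 2 months, 40.4, 8.42 and 20.7 CPM at 18 months, and 29.7, 23.3 and 25.4 CPM at 24 months. All 24 month samples exceeded all 2 month samples, and the 18 month group held both the highest and a low sample. The log2 difference was 1.20 at 24 months (SE 0.484, edgeR adjusted p = 0.0791) and 1.03 at 18 months (SE 0.485, adjusted p = 0.188), neither past the threshold. Leaving out 2 month replicate 3, or 18 month replicate 1, or 18 month replicate 2, brought it past the threshold at 24 months (0.0352 to 0.0466), and also with DESeq2 (0.0377) and limma-voom (0.0146). Acp5 overlaps 6530413G14Rik on the other strand, and the strand setting of the counting is not given in the sources used here.

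Ctsk (ENSMUSG00000028111, chromosome 3, 95499256 to 95509362, plus strand, 8 exon blocks) encodes cathepsin K, a collagen-degrading protease that fibroblasts also make. The samples read 18.9, 19.4, 13.9 and 18.1 CPM at 2 months, 22.1, 27.0 and 19.7 CPM at 18 months, and 16.2, 29.6 and 28.3 CPM at 24 months. The 18 month samples lay just above the 2 month range, and 24 month replicate 1 lay inside it. Its log2 difference was 0.39 at 18 months (SE 0.218, edgeR adjusted p = 0.263) and 0.49 at 24 months (SE 0.217, adjusted p = 0.102). Without 24 month replicate 1 the second value passed the threshold (adjusted p = 0.0131), and it also passed with limma-voom (0.0182). The summed level of 6 fibroblast and stroma markers lay at 2334 to 3115, 3097 to 5092 and 3403 to 6609 CPM at the 3 ages, and its part in the Ctsk level was not tested.

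Among the secreted proteins, Mmp12 and Spp1 moved in opposite directions. Mmp12 (ENSMUSG00000049723, chromosome 9, 7344381 to 7369499, plus strand, 11 exon blocks) encodes macrophage elastase. It read 5.21, 6.99, 4.06 and 12.3 CPM at 2 months, 47.9, 9.24 and 59.2 CPM at 18 months, and 50.9, 19.6 and 88.7 CPM at 24 months. All 24 month samples lay above the 2 month samples, whereas 18 month replicate 2 lay within their range. Mmp12 rose by 2.89 at 24 months (log2 units, SE 0.676, adjusted p = 0.0120 by edgeR), a call kept whichever sample was left out. The rise of 2.43 at 18 months (SE 0.670, adjusted p = 0.0462) was lost on leaving out any single 2 month sample, the first 18 month replicate, the summed one, or 24 month replicate 1, with adjusted p between 0.0523 and 0.1496. It was also lost with no count filter (0.134), with library totals in place of TMM factors (adjusted p = 0.0502) and with limma-voom (0.108). The gene overlaps Mmp1b on the other strand, which had 0 counts in all samples.

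Spp1 (ENSMUSG00000029304, chromosome 5, 104435118 to 104441050, plus strand, 8 exon blocks) encodes osteopontin, a secreted integrin and CD44 ligand of bone matrix, macrophages and many epithelia. The level was 153, 18.5, 143 and 48.6 CPM at 2 months, 94.2, 39.7 and 2.58 CPM at 18 months, and 8.02, 13.999 and 3.78 CPM at 24 months. All 24 month samples lay below all 2 month samples, and the ratio of the highest to the lowest sample was 8.25 at 2 months and 36.4 at 18 months, wider than for the other 7 genes above 1 CPM. Spp1 fell by 3.40 from 2 to 24 months (log2 units, SE 1.12, adjusted p = 0.0406 by edgeR). That call was lost in 7 of 10 fits without 1 sample (2 month replicates 1, 3 and 4, 18 month replicate 2 and each 24 month replicate), with adjusted p between 0.0536 and 0.119. It was also lost with limma-voom (0.1001), with no count filter (0.125) and with all 11 libraries kept apart (0.0502). The log2 differences of -0.99 from 2 to 18 months (SE 0.993, adjusted p = 0.542) and -2.41 from 18 to 24 months (SE 1.10, adjusted p = 0.485) did not pass. The predicted gene Gm42793 overlaps Spp1 on the same strand and had 8 counts in all, against 14937 for Spp1.

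Lgals3 (ENSMUSG00000050335, chromosome 14, 47367751 to 47386160, plus strand, 8 exon blocks) encodes galectin-3, a sugar-binding protein of macrophages and epithelia. It measured 157, 46.2, 102 and 96.9 CPM at 2 months, 165, 73.3 and 63.0 CPM at 18 months, and 64.8, 49.9 and 128 CPM at 24 months. The groups overlapped at all ages. Its log2 differences were -0.00 at 18 months (SE 0.477, edgeR adjusted p = 0.998), -0.31 at 24 months (SE 0.480, adjusted p = 0.632) and -0.31 between them, and the sign of the first turned under several settings.

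**Figure D3:**
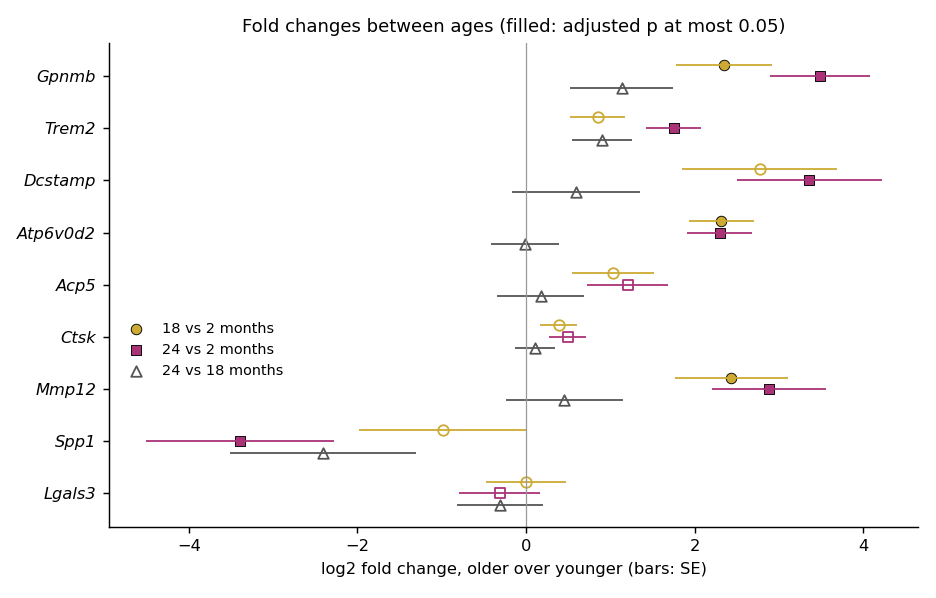
Log2 fold changes of the 9 tested genes (x axis, older over younger age, bars are SE) for 18 against 2, 24 against 2 and 24 against 18 months, with filled symbols where the edgeR adjusted p was at most 0.05. The largest rise was 3.48 (Gpnmb, 24 against 2 months), Spp1 stood at -3.40, and no 24 against 18 month symbol is filled.

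Non-overlap of the groups was counted beside the test. At 18 months 3 of 9 tested genes (Gpnmb, Ctsk, Atp6v0d2) lay wholly above the 2 month samples, against 13.7% of all tested genes. At 24 months 6 of 9 lay above (Gpnmb, Trem2, Acp5, Atp6v0d2, Mmp12 and Dcstamp, the last kept by the count filter through its older samples), against 21.7%, and Spp1 lay below, against 20.4%.

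Per kilobase of exon, the order of the 10 genes differed between the ages. At 2 months Spp1 (55.1 ± 40.8, SD, n = 4) and Lgals3 (54.2 ± 24.4) stood highest, in CPM per kilobase (RPKM), and their samples overlapped. Ctsk followed with 11.6 ± 1.65, Acp5 with 5.60 ± 2.64, Gpnmb with 2.96 ± 1.17, Atp6v0d2 with 2.62 ± 0.724, Trem2 with 1.27 ± 0.545 and Mmp12 with 0.988 ± 0.506. The steps from Acp5 to Gpnmb, Gpnmb to Atp6v0d2 and Trem2 to Mmp12 were within the spread of the samples. At 24 months Lgals3 (43.5 ± 22.3, n = 3) and Gpnmb (33.2 ± 24.5) stood highest and overlapped. Ctsk (16.3 ± 4.91), Atp6v0d2 (12.9 ± 5.24) and Acp5 (12.9 ± 1.61) followed within their spread, then Mmp12 (7.33 ± 4.79), Spp1 (5.22 ± 3.12) and Trem2 (4.28 ± 0.132). At 18 months Lgals3 (54.0 ± 30.2, n = 3) led, and Spp1 (27.6 ± 27.9), Ctsk (15.2 ± 2.43), Gpnmb (15.1 ± 9.71), Atp6v0d2 (13.1 ± 5.62) and Acp5 (11.4 ± 7.94) overlapped one another. Dcstamp and Ocstamp were the 2 lowest at every age, at 0.173 ± 0.0898 and 0.111 ± 0.0356 RPKM at 24 months.

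General macrophage markers were higher at both older ages, as were the genes of the set that rose and unlike Spp1 and Lgals3. The summed level of 13 markers (Csf1r, C1qa and C1qc among them) lay between 353 and 486 CPM at 2 months, 743 and 1082 CPM at 18 months, and 981 and 1150 CPM at 24 months, and none was at 0 in any group. Of the 13, 10 rose at 18 months (6.04% of all tested genes did) and 13 at 24 months (19.2%), with a median log2 fold change of 1.06 and 1.18, and 0 passed between 18 and 24 months (0 also at an unadjusted p under 0.05). Without 1 sample, the 24 month call was kept in 2 of 10 fits for Cd163, 7 for Cd14, 9 for Mertk and all for the other markers. The least kept 18 month call was that of Cd68, in 5 of 10 fits. Csf1r, the receptor for macrophage colony-stimulating factor, rose by 1.16 at 24 months (log2 units, SE 0.121, adjusted p = 0.00138 by edgeR), and Cd68, a lysosomal protein of phagocytes, went from 24.4 ± 7.38 CPM (SD, n = 4) at 2 months to 70.1 ± 18.1 CPM (n = 3). Among the 18 month samples, replicate 2 had the lowest marker sum (743 CPM) and also the lowest Gpnmb, Trem2, Acp5, Atp6v0d2 and Mmp12. Among the 24 month samples, replicate 2 again had the lowest marker sum (981 CPM) and the lowest Gpnmb, Acp5, Atp6v0d2, Mmp12 and Lgals3. The same sample had the highest Csf1r of all samples (119 CPM) and the highest Ctsk and Spp1 of its age, and 18 month replicate 2 had the highest Ctsk of its age. On the mean of the markers' log2 levels, used below as an index, the 24 month samples were nearly equal and replicate 2 was the highest.

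Each gene was then set against the mean log2 CPM of the 13 markers in the same sample, as a description with no test. This index was 4.21 ± 0.201 (SD, n = 4) at 2 months, 5.21 ± 0.223 (n = 3) at 18 months and 5.42 ± 0.00780 (n = 3) at 24 months. Gpnmb stood at -0.01 ± 0.60 log2 units relative to the index at 2 months, 1.17 ± 0.93 at 18 months and 2.09 ± 1.02 at 24 months, and the 24 month samples (1.23 to 3.22) did not overlap those of 2 months (-0.83 to 0.63). Atp6v0d2 stood at -1.40 ± 0.43, -0.17 ± 0.53 and -0.38 ± 0.69, and the 24 month samples overlapped those of 2 months while the lowest 18 month sample (-0.78) lay just above the highest 2 month sample (-0.83). Mmp12 went from -1.48 ± 0.72 to 0.06 ± 1.10 at 24 months, also with overlap. By contrast, Trem2 stood at -1.64 ± 0.73, -1.75 ± 0.34 and -1.01 ± 0.04, and Acp5 at -0.81 ± 0.57, -0.95 ± 0.91 and -0.71 ± 0.19, and for both the 24 month samples overlapped those of 2 months. Relative to the index, Trem2 at 24 months (-1.05 to -0.98) lay above 18 months (-2.09 to -1.40) but inside the range of 2 months (-2.62 to -0.97). Ctsk (-0.08, -0.70 and -0.84), Lgals3 (2.32, 1.30 and 0.80) and Spp1 (1.85, -0.79 and -2.49) had lower means relative to the index at the older ages, and only for Spp1 were the 24 month samples (-3.48 to -1.61) all below those of 2 months (0.05 to 3.30).

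**Figure D4:**
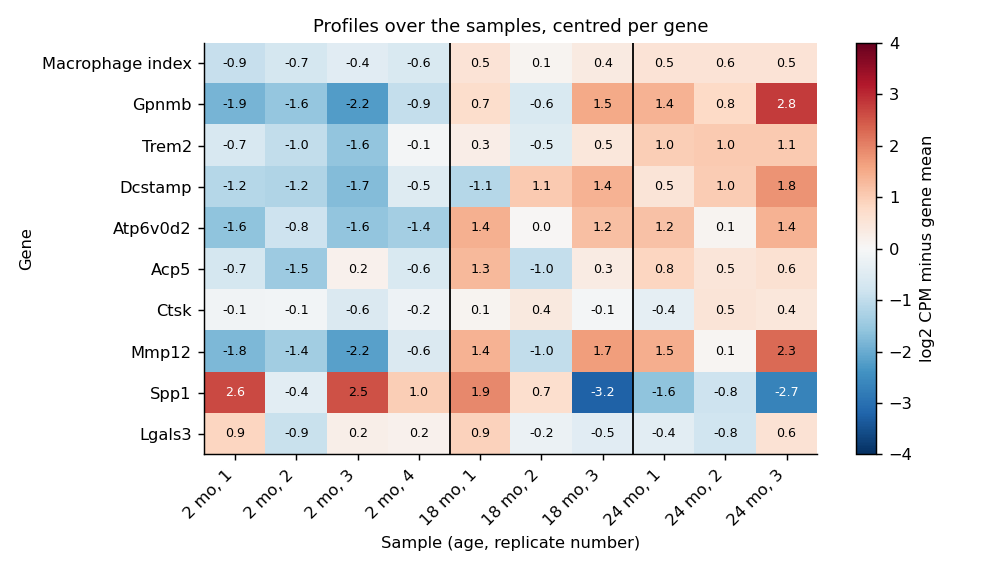
Log2 CPM of the 9 tested genes and of the macrophage marker index in each of the 10 samples (columns, by age and replicate number, 18 mo 3 being the summed sample), centred per gene (colour, from blue for below to red for above the gene's mean). Gpnmb and Mmp12 have the most similar rows, with a root mean square difference of 0.40, and the row of Spp1 is the most distant from that of Gpnmb, at 3.39.

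Gpnmb and Mmp12 had the closest profiles of any 2 of the 9 genes over the 10 samples, with a root mean square difference of 0.40 log2 units after centring. Atp6v0d2 came next to both, at 0.59 from Mmp12 and 0.69 from Gpnmb. The profiles of Acp5, Ctsk and Trem2 lay nearer to the macrophage index (0.53, 0.50 and 0.53) than to any other of the genes. Among all other tested genes with at least 1 CPM, Clec7a, the beta-glucan receptor of phagocytes, had the profile most like those of Gpnmb (0.41) and Mmp12 (0.44). Hpgds, a prostaglandin D synthase, came second for Gpnmb (0.48) and Cd300lb, an activating myeloid receptor, second for Mmp12 (0.52). The nearest to Atp6v0d2 were Ms4a7 (0.35) and Wfdc17 (0.40), both myeloid genes, those to Trem2 Gm12339 (0.30) and Parvg (0.32), and those to Acp5 the MHC class I gene H2-K1 (0.35) and Atp8b4 (0.37). The nearest to Spp1 were Slc37a2 and S100a6, both at 0.57. The remaining nearest genes were Ssbp2 (0.09) and Pknox2 (0.11) for Ctsk, Kcnj2 (0.25) and Abca5 (0.36) for Lgals3, and Ly6h (0.39) and Kif5c (0.42) for Dcstamp. A gene that varies little has small differences by construction, which limits every ranking above, and values of nearest genes are not compared between the 9 genes. Ctsk varied little, from -0.58 to 0.51 log2 units around its mean. Its small distance to the index therefore does not by itself show a shared pattern.

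Partners of the 10 genes were counted from lists of their pathways, 103 of 110 distinct genes being tested. Between 18 and 24 months 0 of the 103 passed edgeR's test (13 had an unadjusted p under 0.05), 0 passed limma-voom, and DESeq2 called 2, Cd44 and Itga8. The shares of all tested genes to set beside each count below are 6.04% higher and 5.51% lower at 18 months, and 19.2% higher and 15.8% lower at 24 months. Of 11 tested genes of TREM2 signalling and its ligands, 4 rose at 18 months and 0 fell, and 7 rose (19.2% of all tested genes did) and 1 fell (15.8%) at 24 months (median log2 fold change 0.98 and 1.26). Of these 7, Hcst, Treml2 and Treml4 were kept by the count filter through their older samples. At 24 months the kinase Syk rose by 1.57 (log2 units, SE 0.227, adjusted p = 0.00255 by edgeR), the phosphatase Inpp5d by 1.26 (SE 0.198), the lipoprotein ligand Apoe by 1.07 (SE 0.172), and the adaptor Tyrobp by 1.26 (SE 0.244). Apoe was abundant, at 713 ± 37.4 CPM (SD, n = 4) at 2 months and 1502 ± 141 CPM (n = 3) at 24 months. The one that fell was Adam17, the protease known to shed TREM2, named after its value was seen. These 24 month calls of Syk, Inpp5d, Apoe and Tyrobp were kept whichever sample was left out, but at 18 months only that of Apoe was.

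Of 18 genes of lipid uptake, storage and efflux, 3 rose and 2 fell at 18 months, and 5 rose and 2 fell at 24 months (median 0.12 and 0.23), shares near the 19.2% and 15.8% of all tested genes at 24 months. Fabp4, a fatty acid carrier of fat cells, endothelium and macrophages, rose from 2.28 ± 0.446 CPM (SD, n = 4) to 29.5 ± 8.22 CPM (n = 3) at 24 months, or by 3.69 (log2 units, SE 0.503, adjusted p = 0.00221 by edgeR). Lipa, the lysosomal acid lipase, rose by 0.76 (SE 0.146). Pparg, the nuclear receptor known to drive Fabp4, moved the other way and fell by 1.08 (SE 0.164, adjusted p = 0.00280). All 3 calls at 24 months were kept whichever sample was left out. The summed level of 4 adipocyte markers was 10.2 to 18.6 CPM at 2 months and 9.36 to 56.6 CPM at 24 months, and its part in the Fabp4 level was not tested.

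RANK signalling, which turns macrophage precursors into osteoclasts, had 17 of 20 genes tested. Oscar, Calcr and Siglec15 were filtered out for low counts, at means of 0.240, 0.197 and 0.00761 CPM at 2 months and 0.210, 0 and 0.0991 CPM at 18 months. Of the 17, 4 rose at 18 months (6.04% of all tested genes did) and 9 at 24 months (19.2%), and 0 fell at either age (5.51% and 15.8%). The median log2 fold change was 0.69 and 0.43. Csf1r, one of the 9, is also one of the macrophage markers. At 24 months the growth factor Csf1 rose by 1.21 (log2 units, SE 0.121, adjusted p = 0.00138 by edgeR) and the myeloid transcription factor Spi1 by 1.34 (SE 0.270, adjusted p = 0.00688). The ligand Tnfsf11 (RANKL) was rare, at 0.249 ± 0.117 CPM (SD, n = 4) at 2 months and 1.11 ± 0.403 CPM (n = 3) at 24 months, and rose by 2.13 (SE 0.511, adjusted p = 0.0128). Tnfsf11 and Tfec, another of the 9, were kept by the count filter through their older samples, since it needs at least 0.321 CPM in 3 samples. Its receptor Tnfrsf11a (RANK) rose by 1.04 (SE 0.338, adjusted p = 0.0382), and its decoy receptor Tnfrsf11b (osteoprotegerin) by 1.77 (SE 0.445, adjusted p = 0.0153). The ratio of ligand to decoy was 0.223 ± 0.0979, 0.344 ± 0.283 and 0.444 ± 0.465 at 2, 18 and 24 months, and no pair of ages passed (exact permutation p = 0.543 to 0.8). Nfatc1, the transcription factor that drives Dcstamp, Acp5, Ctsk and Atp6v0d2 in osteoclasts, rose by 0.74 at 24 months (SE 0.222, adjusted p = 0.0297). Mitf, which acts with it, differed by 0.43 (SE 0.200, adjusted p = 0.116). The Tnfrsf11a call was lost in 5 of 10 fits without 1 sample (2 month replicates 1 and 4, the summed 18 month sample, 24 month replicates 2 and 3, adjusted p up to 0.132), and that of Nfatc1 in 4 (2 month replicates 1, 2 and 4 and 24 month replicate 2, up to 0.0989). Mitf passed without 2 month replicate 4 (0.0473).

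Of 10 genes of the resorption machinery, 2 rose at each older age and 0 fell (median 0.25 and 0.24), and at 24 months this is about the 19.2% of all tested genes that rose. Snx10, a sorting protein needed for the osteoclast's acid secretion, rose by 1.18 at 24 months (log2 units, SE 0.178, adjusted p = 0.00274 by edgeR), and Tcirg1, the a3 subunit of the osteoclast proton pump, by 0.72 (SE 0.188, adjusted p = 0.0170). The call of Tcirg1 was lost without 2 month replicate 1 (0.0530). The gelatinase Mmp9 rose at 18 months, a call that ended on leaving out 2 month replicate 1 or 2 or 18 month replicate 2 (up to 0.0642), and at 24 months it differed by 0.97 (SE 0.480, adjusted p = 0.141). Of 10 genes of cell fusion, 3 rose at 18 months (6.04% of all tested genes did) and 4 at 24 months (19.2%), and 0 fell (median 0.41 and 0.47). Cd44, the hyaluronan and osteopontin receptor, rose by 1.69 at 24 months (SE 0.109, adjusted p = 6.87e-04), the receptor kinase Mst1r by 1.61 (SE 0.197), and Sirpa, which binds CD47 on partner cells, by 1.26 (SE 0.174). Those 3 calls were kept whichever sample was left out.

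The other vacuolar proton pump subunits were counted in the same way. With Atp6v0d2 itself left out of the list, 0 of 21 tested subunits passed at 18 months (2 had an unadjusted p under 0.05, against 29.9% of all tested genes), and 2 rose (19.2% of all tested genes did) and 6 fell (15.8%) at 24 months, with a median log2 fold change of -0.34. Tcirg1 and Atp6v1b2 were the 2 that rose, and the call of Atp6v1b2, named after its value was seen, ended on leaving out any 1 of 5 samples (replicates 1, 2 and 4 of 2 months, 1 and 2 of 24 months, adjusted p up to 0.0889). Atp6v0e2 fell by 1.27 (SE 0.237, edgeR adjusted p = 0.00544), Atp6v1d by 0.68 (SE 0.148) and Atp6v1e1 by 0.87 (SE 0.220). Leaving out replicate 2 or 3 of 24 months ended the call of Atp6v1e1 (adjusted p up to 0.0527).

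Among 11 receptors of osteopontin and GPNMB, 1 rose at 18 months, and 3 rose and 1 fell at 24 months (median 0.40 and 0.29), near the 19.2% and 15.8% of all tested genes. The integrin subunit Itga8 fell by 0.99 (log2 units, SE 0.185, adjusted p = 0.00532 by edgeR), while Itgav, the most general osteopontin receptor subunit, differed by -0.22 (SE 0.192, adjusted p = 0.381). Itgb6, an epithelial integrin subunit, had 0 counts in the 4 samples of 2 months and 2, 48 and 120 counts in the 24 month samples, at least 69.8-fold higher against a floor of 3 counts over the 2 month group. The bound was 31.9-fold without 24 month replicate 3. Itgb6 was kept by the count filter through its older samples, so its place among the 3 that rose is partly set by that filter, and the call ended on leaving out 2 month replicate 1, or replicate 2 or 3 of 24 months (adjusted p up to 0.0721). The summed level of 11 epithelial markers was 119 to 155 CPM at 2 months and 224 to 1503 CPM at 24 months, and its part in the Itgb6 and galectin levels was not tested. Of 8 genes of other galectins and of a galectin-binding protein, 3 rose at 18 months (6.04% of all tested genes did) and 5 at 24 months (19.2%), and 0 fell (median log2 fold change 0.59 and 0.73). Lgals7, itself one of those epithelial markers, rose by 2.15 at 24 months (SE 0.193, adjusted p = 0.00120), Lgals2 by 1.88 (SE 0.184) and Lgals8 by 0.49 (SE 0.0851), and these 3 calls were kept whichever sample was left out.

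**Figure D5:**
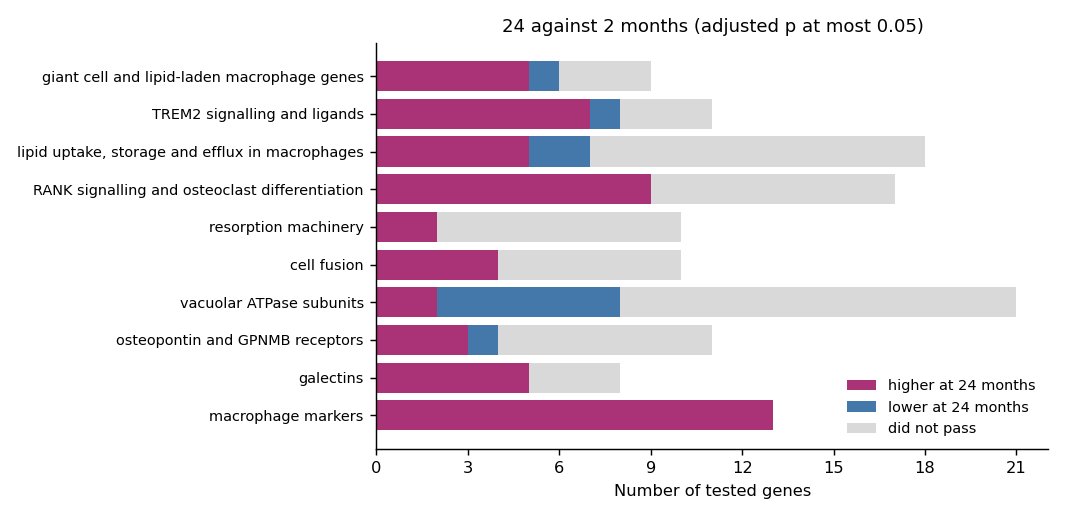
Number of tested genes (x axis) of each list that rose, fell or did not pass from 2 to 24 months (edgeR adjusted p at most 0.05), for the 10 genes described here, their pathway lists and 13 macrophage markers. All 13 macrophage markers rose, and 6 vacuolar pump subunits fell and 2 rose, where 19.2% of all tested genes rose and 15.8% fell.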

How the data were processed

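The authors deposited raw counts of reads per gene, 1 column per library, which were used as the unit throughout. Per the labels' protocols, RNA came from Trizol extraction with on-column DNase treatment, and the library kit was Illumina's stranded mRNA kit. Per the submitters' processing notes, FastQC, cutadapt, STAR, HTSeq and the build mm10 were used. For versions, annotation and strand setting the entry is: not given in the sources used here. The strand setting limits genes that overlap others. Coordinates are those of the table. Exon lengths came from GENCODE M21, in which 52873 of the 54232 identifiers (97.5%) have identical coordinates.

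Groups follow the ages in the titles. After edgeR's filterByExpr (20331 genes kept) and TMM scaling, a quasi-likelihood fit over all ages (edgeR 4.0.16, R 4.3.3, 7 residual degrees of freedom) gave two-sided tests of each pair of ages. Adjusted p-values (Benjamini-Hochberg) run over all tested genes, with a threshold of 0.05. SEs are the log2 fold change over the square root of F. For profiles the prior count of log2 CPM was 2. The test was run on simulated counts first. Fewer counts in the summed 18 month sample mean more counting error for rare genes.

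The 10 genes, lists and tests were chosen with earlier results of these data known. All 10 are described. From each pathway list the 3 genes with the smallest adjusted p at 24 against 2 months and fixed partners (such as Atp6v0d1, Tyrobp, Tnfsf11, Nfatc1 and Itgav) are named, and other marker lists are given as sums. For each tested gene the 2 other genes with the nearest profile are named.

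Replicate numbers were checked for pairing by correlating deviations from the age means. Same-numbered samples gave 0.398, 0.283 and 0.148 for 24 with 18 months, number 3 at 18 months being the summed sample. Different numbers reached 0.144, so a pairing of these ages is uncertain. The main tests used no pairing at any age, and the replicate block was fitted only as an alternative. With 2 months, same-numbered samples gave -0.109 to 0.0741, and different numbers reached 0.247. No pairing with 2 months was seen, but correlations among so few samples cannot exclude one. Alternatives were library totals, other count filters, only the ages compared, all 11 libraries apart, a replicate block, DESeq2 1.42.0, limma-voom (limma 3.58.1) and leaving out each sample.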

Additional observations from a re-analysis of the deposited data

Results flagged for a closer look

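Nfatc1, the osteoclast transcription factor, read 15.2 CPM in 2 month replicate 3 against 8.36 to 8.69 CPM in the other 2 month samples, which set that sample apart from its group. Of 34 groups of 4 samples examined this way it was the 1 that stood out. Chance alone gives about 1 in 20, so 1 of 34 is no more than chance would give. Without that sample Nfatc1 also passed at 18 against 2 months (edgeR adjusted p = 0.00924).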

How the results depend on the processing

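Genes called at 18 against 2 months numbered 2349, but 4000 with all 11 libraries apart and 4052 with DESeq2. With a replicate block they were 1034 in all and 0 of the described genes, and with the replicate block and only the ages compared 541 and 0. With no count filter 1 of the described genes was called (Atp6v0d2). At 24 against 2 months the replicate block with only the ages compared gave 1952 genes, against 7120 otherwise, and 2 described genes, and with the replicate block alone only the call of Spp1 was lost (adjusted p = 0.0854). Between 24 and 18 months 1 gene was called in the main fit, which used no pairing. With either replicate block, with library totals or with only the ages compared 0 were called, against 194 with DESeq2. Leaving out 1 sample gave 375 to 2748, 4283 to 7467 and 0 to 2 genes for 18 against 2, 24 against 2 and 24 against 18 months, and 1 to 3, 4 to 7 and 0 described genes. The cause of these shifts was not tested. Some small fold changes turned sign. Lgals3 at 18 against 2 months gave 0.0824 with library totals, 0.0223 with only the ages compared, 0.0701 and 0.0420 with the replicate blocks, and -0.54 to 0.29 without 1 sample. At 24 against 18 months Atp6v0d2 gave 0.0822 with library totals and 0.0066 with a stricter filter, and Mmp12 gave -0.0759 with limma-voom. Without 1 sample in that comparison, Acp5 ranged from -0.23 to 0.84, Atp6v0d2 from -0.33 to 0.28, Ctsk from -0.0467 to 0.35, Lgals3 from -0.79 to 0.24 and Mmp12 from -0.13 to 0.89. Depth limits Dcstamp and Ocstamp, with 73 and 55 counts in all samples.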

Other observations

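Cell types outside the macrophage lineage were summed from their markers in the same samples. Mast cell markers (5 genes) summed to 45.8 to 54.3 CPM at 2 months, 20.2 to 47.1 CPM at 18 months and 53.1 to 226 CPM at 24 months. From 2 to 24 months 4 of the 5 rose (19.2% of all tested genes did), with Cpa3, a mast cell carboxypeptidase, at 5.08 (log2 units, adjusted p = 0.0132 by edgeR). Those 4 were kept by the count filter only with their 18 or 24 month samples. Each reached its minimum of 0.321 CPM in only 2 of the 4 samples of 2 months. The fifth, Kit, did not pass from 2 to 24 months, with log2 fold changes of -0.06 to 0.39 without 1 sample. The sums include Kit, so they do not give the level of the other 4 genes. Neutrophil markers (5 genes) summed to 2.14 to 4.55 CPM at 2 months and 6.69 to 8.51 CPM at 24 months, and Ly6g was at 0 in all samples of 2 and 18 months. Bone markers (6 genes) summed to 11.8 to 26.6 CPM at 2 months and 7.63 to 26.8 CPM at 24 months, with overlap. Of the 4 tested, 1 rose at 24 months, near the 19.2% of all tested genes. It was the osteoblast transcription factor Sp7 (2.25 log2 units, adjusted p = 0.0325 by edgeR), a call lost on leaving out any 2 month sample or replicate 2 of 24 months (adjusted p up to 0.263).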
